A study of Mus musculus with 12 samples.

Results

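The auxiliary subunits of voltage-gated calcium channels examined here are the products of 7 genes, the α2δ genes Cacna2d1, Cacna2d2 and Cacna2d3 and the β genes Cacnb1, Cacnb2, Cacnb3 and Cacnb4. They were taken by name, as probe sets whose annotation gave exactly that gene symbol, and a gene with more than 1 such probe set was represented by the brightest, averaged over all 12 arrays. This gave 7 probe sets for 6 of the 7 genes, among 19937 genes that had at least 1 probe set to themselves. Cacna2d1 had a pair of probe sets, and Cacnb3 had none under its symbol and was not analysed here. No measured value entered the choice of the genes, although earlier results of these data were known when they were chosen.

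High-voltage-activated calcium channels consist of a pore-forming α1 subunit that works together with a cytoplasmic β subunit and an extracellular, membrane-anchored α2δ subunit. The β subunit binds the loop between the first repeats of the pore, brings the channel to the membrane and sets its gating, and α2δ subunits raise the number of channels at the surface and at presynaptic terminals. The products of Cacna2d1 and Cacna2d2 bind gabapentin, and that of Cacna2d1 is also a receptor for thrombospondins in synapse formation. T-type channels, the low-voltage-activated class, work without either subunit.

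The values came from GFP-positive cells sorted from the cortex of C57BL6 mice in which Cre recombinase switches on the RCE reporter. Pyramidal cells (Pyr) were sorted from somatosensory cortices of NexCre;RCE mice at P0 and P12, and interneurons (IN) from cortices of Nkx2-1Cre;RCE mice at P0 and P10. Each of the 4 groups had 3 arrays, from biological replicates lettered A, B and C. Total RNA was measured on Affymetrix mouse gene arrays, and the values are log2 intensities after robust multi-array averaging (RMA). Nex is switched on in young excitatory neurons, and Nkx2-1 in progenitors that include those of the medial ganglionic eminence. Interneurons from progenitors that did not switch on Nkx2-1 lie outside this sort. Interneurons and pyramidal cells were thus taken from differently named dissections at both ages, and IN P10 and Pyr P12 differ in age as well, so that population cannot be told apart from region in either comparison or from age in the older one. In a bulk sample of sorted cells, fewer cells of a type and less RNA per cell cannot be told apart either.

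All 12 arrays correlated best with an array of their own group (r = 0.9948 to 0.9985 within groups and 0.9413 to 0.9828 between them). Background was set on each array at the 95th percentile of probe sets for olfactory and vomeronasal receptors and was between 7.13 and 7.45 on the log2 scale. The sorted populations carried their markers. Pan-interneuron genes were called higher in IN for 7 of 7 at P0 and 7 of 7 at the older ages, including Gad1, the GABA-synthesizing enzyme, by 3.11 and 4.75 on the log2 scale. Of 11 pyramidal genes 8 were called lower in IN at each age. By the adjusted p alone Cux2 and Bcl11b were higher in IN at P0 (0.71 and 0.61), as was Bcl11b at the older ages (0.94). Both genes are kept in the list levels given below. Oligodendrocyte precursor genes were also called higher in IN, 7 of 8 at P0 and 8 of 8 at the older ages, and of 9 genes of myelinating oligodendrocytes 2 and 5 were. Over all tested probe sets 1.9% were called higher in IN at P0 and 2.65% at the older ages, and 1.74% and 2.91% lower. The precursor gene not called at P0 was Vcan, a proteoglycan gene with a mean of 12.48 in Pyr P0 and 12.27 in IN P0. The log2 summed signal of the other 7 was 10.48 to 10.80 in Pyr P0 and 10.50 to 10.69 in Pyr P12, against 13.13 to 13.45 in IN P0 and 12.78 to 13.54 in IN P10, and with Vcan it was 12.80 to 12.87, 11.10 to 11.16, 13.75 to 13.96 and 13.08 to 13.80. The part of these cells in the differences described here was not tested. Genes of microglia and of endothelial cells had mean levels of 6.995 to 7.377 and 7.18 to 7.43, close to background, in all groups. Some single genes lay above it. Of 8 microglia genes, 6 were not above background in Pyr P0 and IN P0, 4 in Pyr P12 and 3 in IN P10. Of 7 endothelial genes, 2 were not in Pyr P0 and 3 in each other group. By the adjusted p alone 4 of the 8 microglia genes were higher with age in each population, and none was called. Astrocyte genes had mean levels of 7.51 to 7.54 in Pyr P0, 7.63 to 7.80 in Pyr P12, 7.58 to 7.70 in IN P0 and 7.74 to 7.99 in IN P10. Of these 8 astrocyte genes, Aldoc was called higher with age in IN (1.29) and Aldh1l1 in Pyr (1.29), and none between the populations. The list did not move one way. By the adjusted p alone 3 were higher and 2 lower with age in IN, and 4 higher and 2 lower in Pyr. Over all tested probe sets 45.5% and 54.7% passed it in either direction. The part of astrocytes and of microglia was not tested either.

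The α2δ genes carried the largest population differences, and the 250 bases upstream of their transcription starts are shown so that the starts of genes with opposite patterns can be read side by side. They are RefSeq sequences of build GRCm38.p6, written 5′ to 3′ on the strand of the gene, with GC boxes (GGGCGG, or CCGCCC on the other strand, runs that overlap included) in capitals. They lie at chr5:15934441-15934690 on the plus strand for Cacna2d1, at chr9:107399630-107399879 on the plus strand for Cacna2d2 and at chr14:29721865-29722114 on the minus strand for Cacna2d3.
Cacna2d1: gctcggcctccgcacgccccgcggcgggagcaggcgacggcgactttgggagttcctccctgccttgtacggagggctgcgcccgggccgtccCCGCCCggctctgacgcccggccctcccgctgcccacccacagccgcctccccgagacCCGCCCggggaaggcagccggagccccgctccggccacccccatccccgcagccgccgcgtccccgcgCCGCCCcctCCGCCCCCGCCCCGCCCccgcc
Cacna2d2: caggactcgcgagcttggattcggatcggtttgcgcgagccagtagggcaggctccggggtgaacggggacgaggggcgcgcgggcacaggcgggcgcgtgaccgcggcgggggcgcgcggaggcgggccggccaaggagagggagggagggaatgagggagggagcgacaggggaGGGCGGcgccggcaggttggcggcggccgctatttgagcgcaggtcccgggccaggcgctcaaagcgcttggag
Cacna2d3: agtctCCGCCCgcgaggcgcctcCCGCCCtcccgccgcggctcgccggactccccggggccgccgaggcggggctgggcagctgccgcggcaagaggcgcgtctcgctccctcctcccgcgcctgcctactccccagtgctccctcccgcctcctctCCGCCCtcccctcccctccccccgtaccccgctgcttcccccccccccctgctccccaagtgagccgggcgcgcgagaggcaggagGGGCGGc

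All of these are rich in G and C. The GC content was 82.4% for Cacna2d1, 74.4% for Cacna2d2 and 80% for Cacna2d3, against a median of 52.4% over 32851 mouse promoters of the same length, and they held 36, 34 and 30 CpG dinucleotides against a median of 6. GC boxes, the recognition sequence of Sp factors, were found 6 times, once and 4 times respectively, and 32.7% of all promoters hold at least 1. Among the 12 RefSeq starts of the 7 genes, none had TATAAA, which 12.4% of all promoters hold, or the cyclic AMP response element TGACGTCA, which 1.55% hold. The E-box CAGCTG, held by 13% of all promoters, occurred once upstream of Cacna2d3 and in none of the other α2δ windows. Among the β genes it occurred once in both Cacnb2 windows and once in a Cacnb4 window. These matches describe the letters only, and no array value measures binding there.

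Cacna2d1 was high in the pyramidal cells and low in the interneurons. Its log2 value was 12.57, 12.38 and 12.38 in Pyr P0 and 13.14, 12.96 and 13.06 in Pyr P12, and it was 9.02, 9.67 and 9.10 in IN P0 and 9.17, 8.76 and 8.97 in IN P10, in the order A, B, C. Every pyramidal array thus lay above every interneuron array, and all values were above background. The means ± SD were 12.44 ± 0.11 and 13.05 ± 0.09 for the younger and older pyramidal cells, and 9.26 ± 0.35 and 8.97 ± 0.21 for the interneurons (n = 3 each).

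At P0 Cacna2d1 was lower in interneurons by 3.18 on the log2 scale, that is 9.08-fold (95% confidence interval 7.31 to 11.3, limma adjusted p = 1.74e-09). At the older ages it was 17.0-fold lower (13.7 to 21.1, limma adjusted p = 7.81e-11). Between the ages it rose in pyramidal cells by 0.61, or 1.52-fold (limma adjusted p = 0.00286), less than the 2-fold used for a call, while the value in IN P10 minus that in IN P0 was -0.29 with an interval from -0.61 to 0.02 (limma adjusted p = 0.123). Arrays of IN P0 and IN P10 overlapped, and the highest of these 6, IN P0 B, decided much of this last difference. Without it the difference was -0.09 (adjusted p = 0.58), and without IN P0 A it was -0.41 and passed the adjusted p (0.0384) without reaching 2-fold.

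The same array, IN P0 B, also had the highest mean of the 11 pyramidal markers among the interneuron arrays. The mean log2 value of that list was 9.83 on IN P0 B, 9.40 and 9.43 on IN P0 A and C, 8.62 to 8.66 in IN P10, 11.25 to 11.29 in Pyr P0 and 11.47 to 11.49 in Pyr P12. Its summed level was 13.58 to 13.85 in IN P0 and 12.91 to 13.05 in IN P10, against 14.997 to 15.044 in Pyr P0 and 15.40 to 15.41 in Pyr P12, and Slc17a6 and Neurod6 were not above background in IN P10. On the linear scale and after subtraction of background, the Cacna2d1 signal in IN P0 was 8.76% of that in Pyr P0 (6.86% to 12.1% over the IN P0 arrays), and the median over the 8 pyramidal markers more than 2-fold lower there was 14.8% (1.31% to 25.8% over these genes). In IN P10 the Cacna2d1 signal was 4.24% of that in Pyr P12 (3.34% to 5.12%), and the same median over 8 markers was 1.17% (-4.56% to 25.1%, negative where a signal lay under background). Cacna2d1 lay below the marker median at P0 and above it at the older ages. Its shares were within the marker ranges, which the 2-fold filter on these markers bounds. The part of pyramidal RNA in the interneuron values was not tested. Without IN P0 B the difference at P0 was -3.39 in place of -3.18, and 3 members were called as with it.

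**Figure D1:**
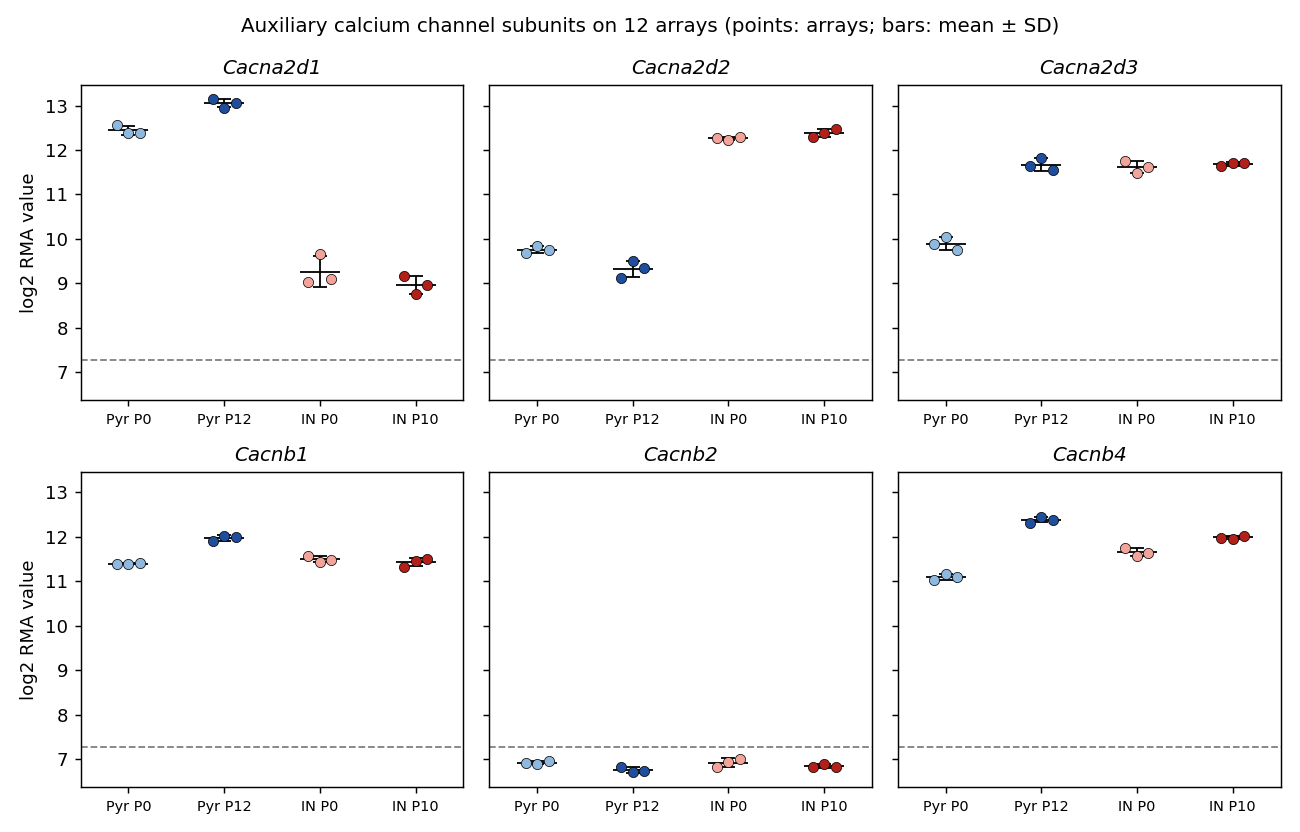
Log2 RMA value of 6 auxiliary subunit genes on each of 12 arrays, by group (points: arrays; wide bar and whiskers: mean ± SD, n = 3; dashed line: mean background over the arrays). Cacna2d1 sat above 12 in all pyramidal arrays and below 10 in all interneuron arrays, Cacna2d2 was arranged the other way, Cacna2d3 was low in Pyr P0, and Cacnb2 lay under the background line throughout.

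The change of Cacna2d1 with age differed between the populations by -0.90 (interval -1.34 to -0.46, limma adjusted p = 0.00414), short of 2-fold. The second Cacna2d1 probe set had the same order of groups but passed 2-fold in that test, at -1.03 (limma adjusted p = 0.00581). It read 12.03, 11.96 and 12.01 in Pyr P0 and 12.73, 12.47 and 12.62 in Pyr P12, and in interneurons 8.60, 9.40 and 8.62 at P0 and 8.66, 8.21 and 8.48 at P10. IN P0 B was again the highest interneuron array. Its population differences were -3.12 at P0 and -4.16 at the older ages, and its change with age was 0.61 in pyramidal cells and -0.42 in interneurons, where it missed the threshold (limma adjusted p = 0.0657).

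Cacna2d2 had the opposite arrangement. Its log2 value was 12.28, 12.22 and 12.29 in IN P0 and 12.29, 12.37 and 12.47 in IN P10, and it was 9.68, 9.84 and 9.76 in Pyr P0 and 9.12, 9.49 and 9.35 in Pyr P12. All interneuron arrays were above all pyramidal arrays, and no pair of groups overlapped, although IN P0 and IN P10 were close. The gene was 5.67-fold higher in interneurons at P0 (95% confidence interval 5.01 to 6.43, limma adjusted p = 1.32e-10) and 8.32-fold higher at the older ages (7.35 to 9.43, limma adjusted p = 6.77e-12).

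Cacna2d2 fell with age in pyramidal cells by 0.44 on the log2 scale (limma adjusted p = 5.33e-04), short of 2-fold. In interneurons its difference between the ages was 0.12, with an interval from -0.06 to 0.30 (limma adjusted p = 0.313). Pan-interneuron markers were also lower in Pyr P12 than in Pyr P0, with list means of 7.68 to 7.81 against 8.73 to 9.21, and their mean was 12.04 to 12.18 in IN P0 and 11.90 to 11.99 in IN P10. The summed level of these 7 genes was 11.69 to 12.22 in Pyr P0 and 10.54 to 10.69 in Pyr P12, against 15.11 to 15.18 at P0 and 14.98 to 15.08 at P10 in interneurons, and in Pyr P12 Gad2, Dlx1 and Dlx5 were above background on 1 of 3 arrays each. The background-subtracted Cacna2d2 signal in Pyr P0 was 15% of that in IN P0 (14.2% to 16.3% over arrays). The markers set beside it pooled the pan-interneuron genes with a list of medial ganglionic eminence interneuron genes. Over the 14 of them more than 2-fold higher in IN P0, the median was 8.03% (-119% for Tac1, under background in Pyr P0, to 45.6%). In Pyr P12 the Cacna2d2 signal was 9.23% of that in IN P10 (7.69% to 10.5%), beside a median of 1.68% over 14 pooled markers more than 2-fold higher in IN P10 (-2.64% to 43.5%). At both ages the Cacna2d2 share was above the marker median. It was within the marker range, which the 2-fold filter on these markers bounds. The part of interneuron RNA in the pyramidal values was not tested.

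**Figure D2:**
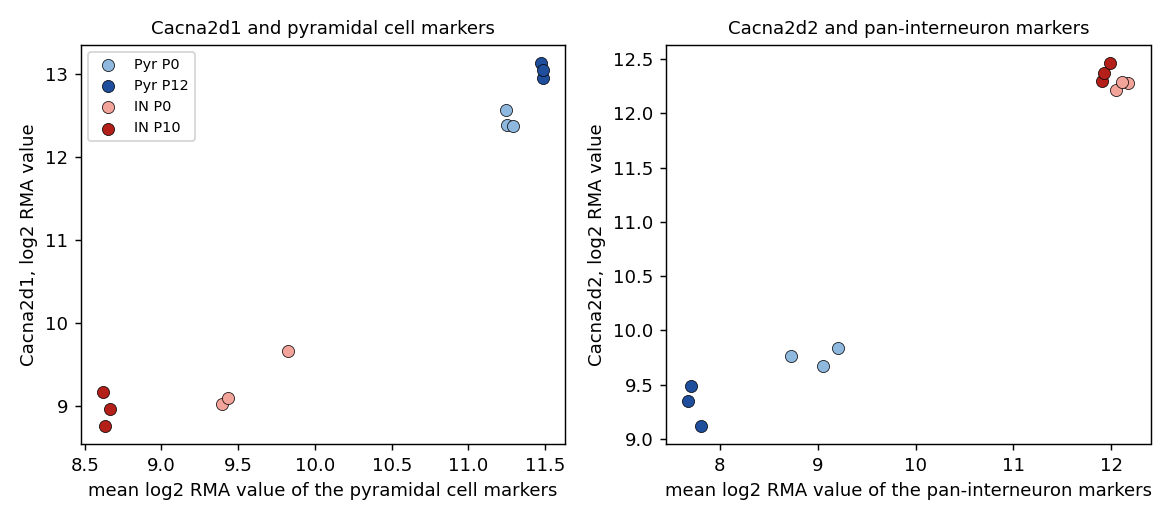
Cacna2d1 against the mean of 11 pyramidal markers (left) and Cacna2d2 against the mean of 7 pan-interneuron markers (right), both in log2 RMA values, with 1 point per array and colours for the groups. The arrays fall into separate groups, so no correlation is given; IN P0 B, at 9.67 for Cacna2d1 and 9.83 for the markers, stands between the other IN P0 arrays and the pyramidal arrays.

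Cacna2d3 separated the young pyramidal cells from the other 3 groups. Its log2 value was 9.89, 10.04 and 9.76 in Pyr P0, against 11.63, 11.83 and 11.55 in Pyr P12. In interneurons it was 11.75, 11.49 and 11.62 at P0 and 11.63, 11.70 and 11.72 at P10. No Pyr P0 array reached the lowest array of any other group, and the other 3 groups overlapped with one another. The gene rose 3.42-fold from Pyr P0 to Pyr P12 (95% confidence interval 2.997 to 3.911, limma adjusted p = 1.26e-09).

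At P0 Cacna2d3 was 3.30-fold higher in interneurons than in pyramidal cells (2.89 to 3.77, limma adjusted p = 5.54e-09). At the older ages the difference was 0.01 on the log2 scale with an interval from -0.18 to 0.21 (limma adjusted p = 0.913), so that a population difference of more than 0.21 lies outside the interval. From IN P0 to IN P10 the difference was 0.07 with an interval from -0.12 to 0.26 (limma adjusted p = 0.624). The change with age itself differed between the populations, by -1.71 in interneurons relative to pyramidal cells (interval -1.98 to -1.44, limma adjusted p = 3.04e-07). Of 9 measured genes of dissociation stress and the immediate early response, 4 were called lower in this test, Egr1 by -3.80. Over all probe sets 2.63% were called lower and 2.24% higher. Other lists were called in this test too, with 6 of 11 pyramidal genes lower and 4 of 7 pan-interneuron genes higher. By the adjusted p alone 5 of the 9 stress and early response genes were lower and 1 higher. The summed level of these genes was 12.70 to 13.13 in Pyr P0 and 13.18 to 13.38 in Pyr P12. In interneurons it was 13.35 to 13.67 at P0 and 12.83 to 12.94 at P10. Their part in the Cacna2d3 values was not tested.

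Among the β genes, Cacnb4, whose product is a common β partner of P/Q-type channels in the brain, was higher at the older age in both populations. Its log2 value was 11.03, 11.17 and 11.09 in Pyr P0 and 12.32, 12.44 and 12.38 in Pyr P12, and in interneurons 11.76, 11.57 and 11.63 at P0 and 11.97, 11.96 and 12.03 at P10. No groups overlapped, and they ran upward from Pyr P0 through IN P0 and IN P10 to Pyr P12. The rise in pyramidal cells was 2.43-fold (95% confidence interval 2.22 to 2.66, limma adjusted p = 7.48e-10), and that in interneurons was 1.26-fold (1.15 to 1.38, limma adjusted p = 3.90e-04), below the 2-fold of a call.

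The population difference of Cacnb4 turned with age. Interneurons minus pyramidal cells gave 0.55 at P0 (limma adjusted p = 9.56e-06) and -0.40 at the older ages (limma adjusted p = 1.23e-04), and the change with age differed between the populations by -0.95 (interval -1.14 to -0.76, limma adjusted p = 2.02e-06). All 3 of these were under 2-fold.

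Cacnb1 encodes the β subunit best known from skeletal muscle, where it couples the voltage sensor to calcium release, and brain makes other splice forms of it. Its log2 value was 11.39, 11.39 and 11.41 in Pyr P0 and 11.90, 12.03 and 12.00 in Pyr P12, and in interneurons 11.57, 11.43 and 11.49 at P0 and 11.32, 11.46 and 11.50 at P10. The Pyr P12 arrays stood above all others, and IN P10 overlapped with both P0 groups. The rise in pyramidal cells was 0.58 (limma adjusted p = 2.06e-06), the difference between the older groups was -0.55 (limma adjusted p = 6.38e-06), and neither reached 2-fold. The differences of 0.10 between the populations at P0 and of -0.07 between the ages in interneurons missed the threshold (limma adjusted p = 0.297 and 0.425). The change with age differed between the populations by -0.65 (limma adjusted p = 6.10e-05).

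Cacnb2, the principal cardiac β gene, gave values between 6.71 and 7.01 and was not above background on any of the 12 arrays, so no fold is given. Its probe set is listed with a single accession, and whether it covers the transcripts made in these cells was not tested.

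A call required both a limma adjusted p below 0.05 and more than a 2-fold difference. No member was called between IN P0 and IN P10, where 4.19% of the 22961 tested probe sets rose and 2.85% fell. With the adjusted p alone, 1 of the 6 measured members passed, Cacnb4, against 45.5% of all probe sets. The count of members with an unadjusted p under 0.05 in limma was also 1, and significance analysis of microarrays (SAM) called 0. Between Pyr P0 and Pyr P12, Cacna2d3 and Cacnb4 were called higher and none lower (2 of 6), where 5.68% of all probe sets were higher and 3.48% lower. The adjusted p alone was passed by 6 of 6, against 54.7% of all probe sets, and 1 of these was Cacnb2, which was under background.

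Between IN P10 and Pyr P12, 1 member was higher (Cacna2d2) and 1 lower (Cacna2d1) in interneurons, where 2.65% of probe sets were higher and 2.91% lower, and 4 of 6 passed the adjusted p alone against 46.6%. Between IN P0 and Pyr P0, 2 were higher (Cacna2d2 and Cacna2d3) and 1 lower (Cacna2d1), where 1.9% were higher and 1.74% lower, and 4 of 6 passed the adjusted p alone against 22.4%. In the test of age by population, 1 member, Cacna2d3, was called lower and none higher, where 2.24% were higher and 2.63% lower, and 5 of 6 passed the adjusted p alone, 1 higher and 4 lower, against 32.1%. All the members called between the populations were α2δ genes, and the β genes differed by less than 2-fold there.

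The median difference over the 6 measured members was 0.59 between the pyramidal ages, beside 0.06 over all tested probe sets. It was 0.33 beside -0.0043 between the populations at P0 and -0.19 beside -0.07 at the older ages. Between the interneuron ages it was -9e-04 beside 0.0019, and for age by population -0.78 beside -0.07. Over the 5 members above background, without Cacnb2, the medians were 0.61 between the pyramidal ages, 0.55 and -0.40 between the populations at P0 and at the older ages, 0.07 between the interneuron ages and -0.90 for age by population. The members ran both ways between the populations, from -3.18 to 2.50 at P0 and from -4.08 to 3.06 at the older ages. The comparisons share groups and are not independent of each other.

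**Figure D3:**
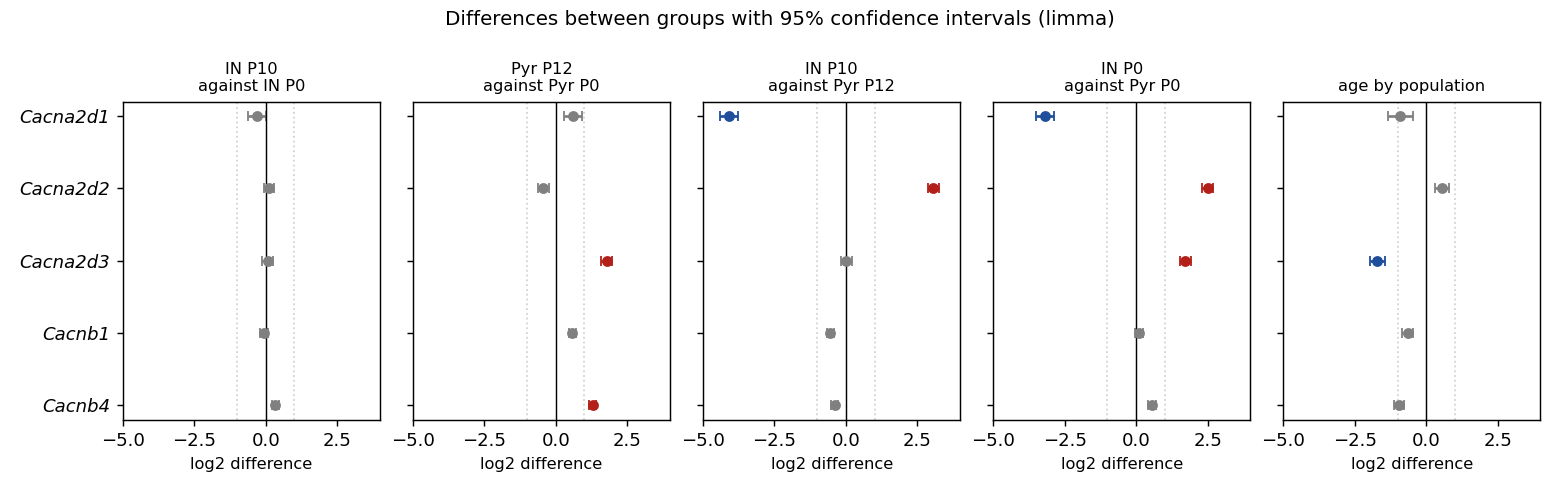
Log2 differences of the 5 auxiliary subunit genes above background in 5 comparisons, with 95% confidence intervals from limma (red: called higher; blue: called lower; grey: not called; dotted lines: 2-fold). No gene passes the dotted lines between IN P0 and IN P10, and the α2δ genes hold every population difference over 2-fold, from -4.08 for Cacna2d1 to 3.06 for Cacna2d2.

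Of the 7 high-voltage-activated pore genes that these proteins serve, 1 was called lower in interneurons at each age and none higher. Over all probe sets 1.74% were called lower at P0 and 2.91% at the older ages. The called pore gene was Cacna1e, the R-type pore, with a log2 difference of -1.08 at P0 (limma adjusted p = 1.05e-07) and -1.26 at the older ages (limma adjusted p = 1.30e-08). The adjusted p alone was passed by 4 of 7 at P0, 2 higher and 2 lower, against 22.4% of all probe sets. At the older ages 5 of 7 passed it, all lower in interneurons, against 46.6%, and the median of the 7 was -0.30. Cacna1a, the P/Q-type pore, rose in pyramidal cells by 1.67 (limma adjusted p = 1.02e-09) and was the only one of the 7 called there. In interneurons it rose by 0.90 (limma adjusted p = 6.13e-07), under 2-fold, and 0 of the 7 were called, with 4 at an unadjusted limma p under 0.05. Over all probe sets 5.68% were called higher and 3.48% lower with age in pyramidal cells, and 4.19% and 2.85% in interneurons. The adjusted p alone was passed by 5 of 7 in pyramidal cells, 4 higher and 1 lower, against 54.7%. In interneurons 3 of 7 passed it, 2 higher and 1 lower, against 45.5%.

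The T-type pores do not depend on auxiliary subunits. Of the 3 genes, Cacna1h fell with age by 1.06 in interneurons and by 1.63 in pyramidal cells, and Cacna1i rose by 1.74 in pyramidal cells (limma adjusted p = 1.24e-07, 1.24e-09 and 1.22e-09). At the older ages Cacna1i was also lower in interneurons (-1.59, limma adjusted p = 4.99e-09). The adjusted p alone was passed there by 3 of 3, against 46.6% of all probe sets. Of these 1 was higher and 2 lower, with Cacna1g at -0.77. Between the populations at P0 none was called, where 1.9% of probe sets were higher and 1.74% lower, and 1 had an unadjusted limma p under 0.05.

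Of other auxiliary and α2δ-like genes, 3 of 4 were measured. Cachd1, an α2δ-like membrane protein, fell by 1.36 in pyramidal cells and at P0 was lower in interneurons (-1.21, limma adjusted p = 1.27e-08 and 1.17e-07). Cacna2d4, the α2δ gene of photoreceptors, and Cacng1, the γ subunit of skeletal muscle channels, were called in no comparison.

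Partners of the β subunits were measured for 7 of 8 genes. Rims1, a scaffold of the presynaptic active zone that binds β subunits, rose in pyramidal cells by 1.15 (limma adjusted p = 3.27e-09). Rims2, its relative, was higher in interneurons at P0 by 1.07 (limma adjusted p = 4.48e-07), and its change with age differed between the populations by -1.44 (limma adjusted p = 1.12e-06). No other β partner was called in any comparison.

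Partners of the α2δ subunits were measured for 7 of 8 genes and included the largest differences of the channel lists outside the auxiliary genes. Thbs1, a secreted thrombospondin, was higher in interneurons by 3.43 at P0 and 2.53 at the older ages (limma adjusted p = 6.68e-11 and 3.08e-10), and it fell with age by 1.95 in interneurons and by 1.05 in pyramidal cells (limma adjusted p = 3.94e-09 and 1.15e-06). Thbs2, another thrombospondin, rose in interneurons by 2.09 (limma adjusted p = 1.10e-08) and more than in pyramidal cells, by 1.14 (limma adjusted p = 2.33e-04). Nrxn3, a presynaptic adhesion protein, was higher in interneurons at P0 by 3.001 and rose in pyramidal cells by 1.83 (limma adjusted p = 7.83e-11 and 1.38e-09). In interneurons it fell by 0.38 (limma adjusted p = 0.00376), under 2-fold, and the interneuron minus the pyramidal change was -2.21 (limma adjusted p = 4.38e-08).

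**Figure D4:**
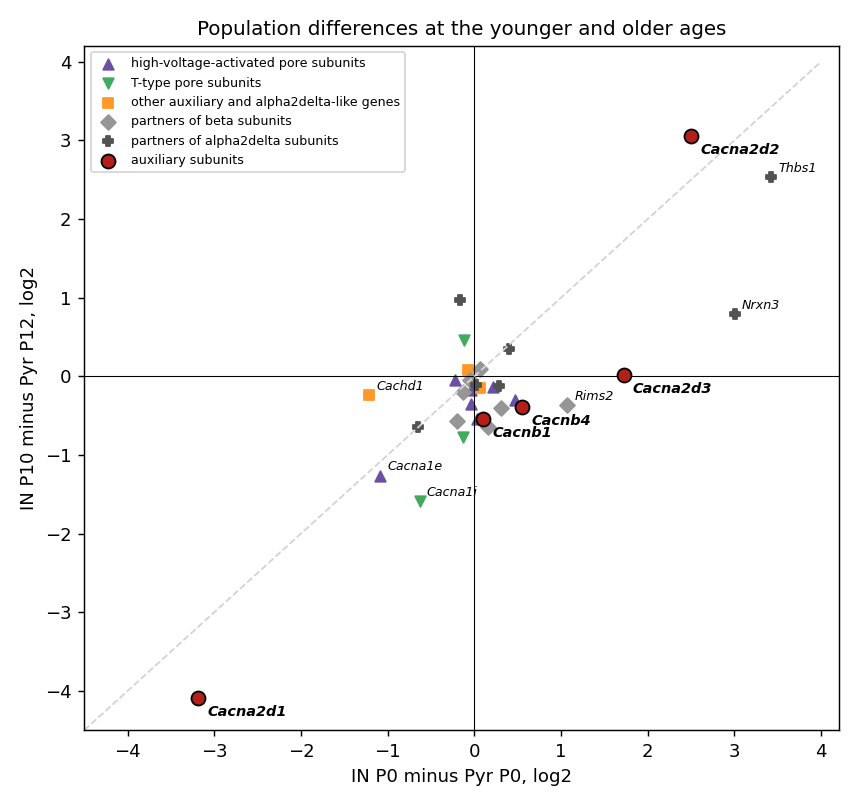
Difference between interneurons and pyramidal cells at the older ages against that at P0, both in log2, for the 5 auxiliary genes above background (red circles) and the genes of 5 pathway lists (other symbols; named where a difference passes 2-fold). Cacna2d1 lies at -3.18 and -4.08, Cacna2d2 at 2.50 and 3.06, and Cacna2d3 at 1.72 and 0.01, while Cacna1e at -1.08 and -1.26 and Cacna1i at -1.59 on the vertical axis are the pore genes past 2-fold.

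The genes whose 4 group means were arranged most like those of a member were sought among 14630 genes above background in at least 1 group, as the smallest root-mean-square difference between centred group means over the 4 groups. For Cacna2d1 these were Slc17a6, a vesicular glutamate transporter, Rorb, a transcription factor of layer 4, and Arpp21. Rorb and Arpp21 were both 0.24 away on the log2 scale, where the root-mean-square spread of the group means of Cacna2d1 itself was 1.83. For Cacna2d2, with a spread of 1.40, they were Ubash3b at 0.12, Dlx6, a transcription factor of interneuron precursors, at 0.18, and Zfp536. For Cacna2d3, with a spread of 0.76, they were Pdk3, Rph3a, a synaptic vesicle protein, and Spats2l, at 0.08, 0.08 and 0.09. For Cacnb1 they were Slc4a5, Lrrc28 at 0.0209 and Tnks1bp1 at 0.0212, and for Cacnb4 Coro2b at 0.0432, Cfap74 and Acer3. No distance is given for Slc17a6, Zfp536, Slc4a5, Cfap74 and Acer3, which were not above background on every array, Slc17a6 on none of IN P10 and Zfp536 on none of Pyr P12, so that their place among the nearest rests partly on values that are only bounds. Likeness over 4 means is a description, and no test was made.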

How the data were processed

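The authors summarized the scans with RMA to log2 values per probe set, and these deposited log2 values of 12 arrays were used without a further step. They ran from 4.74 to 14.73. Software versions are not given in the sources used here. Of 28192 probe sets, 22961 had a gene symbol (21640 exactly 1, 1321 several, tested but not named) and 5231 none, which were left out. All 4 groups were fitted in limma 3.58.1 (R 4.3.3) with 8 residual degrees of freedom, and adjusted p-values are Benjamini-Hochberg values over 22961 probe sets. SAM, which the methods name, and the other alternatives are in the closing section. Precision is limited by 3 arrays a group, and an exact permutation test of 3 against 3 cannot go below 0.1. The scripts were tested on simulated data. The members, the 18 gene lists and the tests were chosen with earlier results of these data known.

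Genes named are all members, the called genes of the pathway lists (up to 4 a list and comparison), up to 2 markers a list, and for each member the 3 genes with the most similar group means. Vcan, Cux2, Bcl11b and the markers named as not above background were added after their values were seen, as were the medians without Cacnb2. Background was the 95th percentile of 1208 receptor probe sets per array. For a share of signal, 2 to the power of that level was subtracted from 2 to the power of the log2 value on each array. The share is the mean of the results in one group as a percentage of their mean in the other. Promoter sequences were matched by symbol for 7 of 7 genes. The main fit did not pair the arrays by replicate letter. Among 18 correlations of deviations between arrays of the same letter in different groups, 6 were over 0.1, with a range from -0.18 to 0.19. Arrays of different letters were not compared in this way, so these values do not decide whether the letters pair the arrays. Plots were drawn with matplotlib 3.10.9.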

Additional observations from a re-analysis of the deposited data

Results flagged for a closer look

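The change with age of Cacna2d3 differed between the populations by the test of the difference itself. From IN P0 to IN P10 it was 0.07, from Pyr P0 to Pyr P12 1.78, and the difference between these was -1.71 on the log2 scale (limma adjusted p = 3.04e-07). It ran from -1.78 to -1.63 over 19 alternatives, with adjusted p-values from 1.31e-08 to 2.27e-06. The probe set is listed with 1 accession, and the ages compared were P10 in one population and P12 in the other, which cannot be told apart from the populations.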

How the results depend on the processing

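The members called at 2-fold were stable where the tool, the fit, the filter or the normalization was changed, and 115 counts stayed within 1.5 times and 610 values on their side of the threshold. The fold threshold mattered more. With no fold threshold the members called were 1 between the interneuron ages, 6 between the pyramidal ages, 4 between IN P10 and Pyr P12 and 5 for age by population, and with 1.5-fold the last was 4. Over all probe sets a fold over 1.5 gave 4329, 4789, 2999, 1677 and 2925 calls, and no fold threshold 10442, 12555, 10691, 5143 and 7364, for the interneuron ages, the pyramidal ages, the populations at the older ages, the populations at P0 and the age by population test, in this order, with 1616, 2103, 1277, 835 and 1117 at 2-fold. For age by population, leaving out 1 array gave 1 to 2 members, since Cacna2d1 then passed 2-fold without IN P0 replicate A (-1.02) and without IN P10 replicate A (-1.0034). The other Cacna2d1 probe set, chosen after seeing the data, gave 2 members there, with Cacna2d1 at -1.03. The replicate block, tried although the main fit did not pair the arrays by letter, left the counts of members at 0, 2, 2, 3 and 1 in the same order. The sign turned in values near 0. Cacna2d3 in IN P10 against Pyr P12 was -0.0067, -0.045 and -0.0024 without Pyr P12 A, Pyr P12 C or IN P10 C (range -0.045 to 0.0929), and Cacnb2 in IN P0 against Pyr P0, under background, was 0.0203 and 0.052 without Pyr P0 C or IN P0 A (range -0.0459 to 0.052). At the 95th and the 99th percentile of the receptor probe sets, 5 members were above background in each group. The cause of the shifts without an array was not tested.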
